A study of Mus musculus with 12 samples.

Results

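Mouse extraembryonic endoderm (XEN) stem cells given BMP4 were compared with untreated XEN cells, both as whole cultures that had not been sorted. The comparison takes the 3 arrays labelled BMP4 and the 3 labelled untreated, 6 of the 12 arrays of the series, and every gene named on them. The other 6 arrays hold cells flow sorted by a fluorescent reporter after BMP4 and were left out. Both groups were of 1 line, Afp::GFP transgenic XEN cells, which carry a green fluorescent protein reporter for the alpha-fetoprotein gene Afp, and both were grown in N2B27 medium. The treated cultures had BMP4 added to that medium, and the untreated ones had no treatment. Neither the dose of BMP4 nor its duration is stated in the sources used here, nor which arrays shared a chip. Total RNA was labelled with biotin and hybridized to Illumina MouseWG-6 bead arrays.

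XEN cells are stem cells of the primitive endoderm, the early embryonic lineage that forms the visceral and parietal endoderm of the yolk sacs and not the embryo proper. Visceral endoderm is a polarized absorptive epithelium that takes up and secretes nutrients and serum proteins around the embryo, and parietal endoderm is a migratory cell layer that secretes a thick basement membrane. BMP4 is a secreted ligand of the transforming growth factor beta family, which acts through receptor kinases that phosphorylate SMAD transcription factors and is known to drive XEN cells towards visceral endoderm.

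The arrays fell apart by treatment. Median signal was 57.7 to 60.1 on the BMP4 arrays and 53.4 to 60.9 on the untreated arrays, and 13872 to 14230 probes were detected on the BMP4 arrays and 14103 to 14737 on the untreated arrays of 45281 probes. Across the 10055 genes tested, Pearson's r between arrays was 0.993 to 0.995 within BMP4, 0.935 to 0.944 between the groups and 0.9955 to 0.9958 within untreated, where genes are not independent replicates. All 12 markers of endoderm stem cells were detected. Their summed normalized signal was 40480 to 42800 on the BMP4 arrays and 49650 to 50790 on the untreated arrays. Of these markers 3 were called higher after BMP4 and 5 lower, but 4 higher and 3 lower with scale normalization, and 3 each way without BMP4 replicate 1 or 2. The SMAD target gene Smad6, an inhibitor of BMP signalling, had levels of 7.48, 7.28 and 6.90 on the BMP4 arrays against 5.82, 5.31 and 5.50 on the untreated arrays, of which 2 detected it. Levels are log2 normalized signals of the brightest probe of a gene, and the BMP4 arrays lay above all untreated arrays for Smad6.

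Most genes that could be measured were called after BMP4. Of 10055 genes, 5630 were called at an adjusted p under 0.05 in limma, or 56%, with 2824 higher (28.1%) and 2806 lower (27.9%). Where the counts of a gene list carry a percentage, it is the share of the list's tested members, to be read against 28.1% higher and 27.9% lower. Most of these changes were small: the median size of a called difference was 0.54 on the log2 scale, and 3113 called genes changed by less than 1.5-fold. At least 2-fold changes were called for 1074 genes (10.7%), 445 higher (4.43%) and 629 lower (6.26%), and at least 4-fold for 100 higher and 136 lower. The 3 BMP4 arrays lay above the 3 untreated arrays for 3218 genes (32%) and below them for 3098 (30.8%), or 62.8% without overlap. Detection was gained by 170 genes, found on all 3 BMP4 arrays and no untreated array, and lost by 301 genes. With 3 arrays a group, and labels that do not say whether the replicates were separate cultures, each p measures only the spread between these arrays. Of genes often used as references, Actb was called lower, at -0.63 and -0.46 with scale normalization, although its 5 probes ran from -1.14 to 0.35 and their mean was not called, and Gapdh (0.41, or 0.53 with scale normalization) and Hprt (0.52, or 0.62) were called higher. In a whole culture, fewer cells of a kind and less RNA per cell cannot be told apart.

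**Figure D1:**
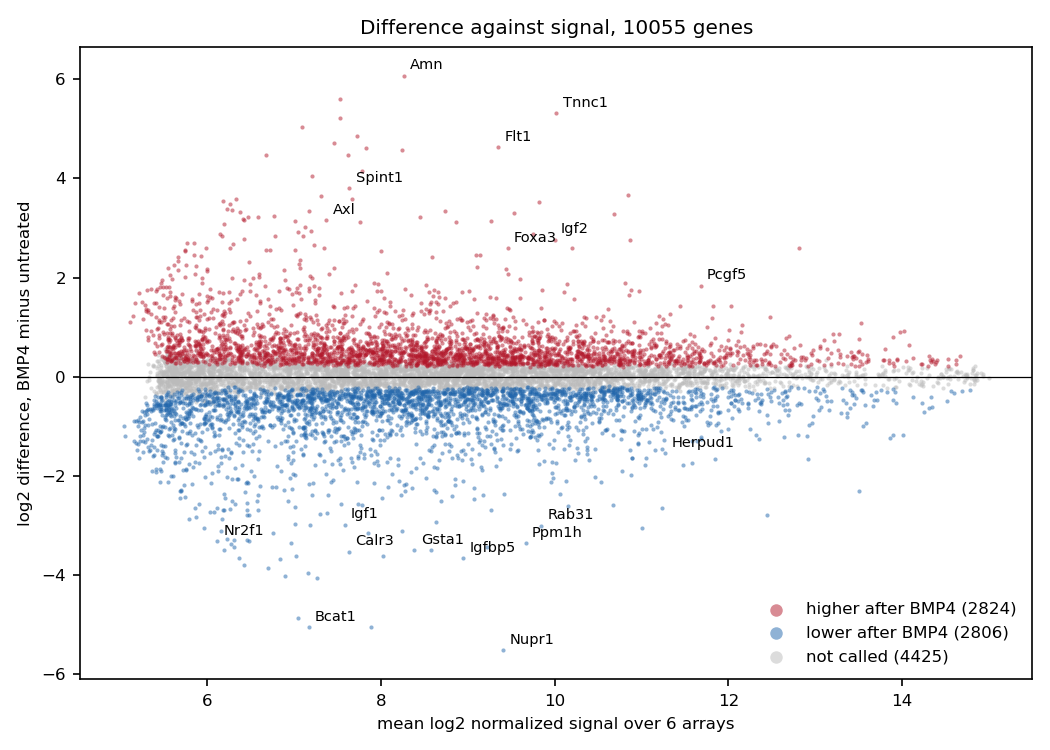
Fitted log2 difference, BMP4 minus untreated, against the mean log2 normalized signal over the 6 arrays, with 1 point for each of 10055 genes, coloured by call (adjusted p under 0.05 in limma) and with some genes named. The 2824 genes called higher and 2806 called lower spread over the whole range of signal, and the largest differences exceed 5 in size in both directions.

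Markers of other cell types were mostly below detection. No array detected 10 of 10 neural markers, 12 of 14 mesoderm, blood and endothelium markers, 10 of 12 gut endoderm and liver markers, 10 of 11 fibroblast markers, 10 of 14 trophoblast markers and 9 of 13 pluripotent cell markers. The summed signal of the gut and liver list was 435.8 to 463.1 on the BMP4 arrays and 276.4 to 283.9 on the untreated arrays, with albumin (Alb) at background on all 6, and that of the trophoblast list was 776.1 to 867.9 and 609.7 to 684.7. The detected members of the gut list were Vil1 and Fga, on the 3 BMP4 arrays only. The trophoblast list held members of both kinds: Cdx2 and Plac1 were detected on the 3 BMP4 arrays only and Gata3 on the 3 untreated arrays only. Fgfr2, also of that list, was detected on all 6. The mesoderm, blood and endothelium list summed to 435.1 to 464.1 after BMP4 and 779.6 to 792.1 untreated, and the pluripotent list to 2890 to 3534 and 2937 to 3593. The neural list summed to 268.7 to 280.9 after BMP4 and 255.4 to 272 on the untreated arrays, and the fibroblast list to 346.4 to 385.1 and 335.4 to 403.9. The gut and trophoblast sums were thus higher after BMP4, the mesoderm sum lower, and the other 3 overlapped between the groups. The detected members of the mesoderm list were Cdh5, on all 6 arrays, and Runx1, on the 3 untreated arrays only. The part of other cell types in the results below was not tested.

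Among the largest rises were genes of the cell surface and of secreted proteolysis. Spint1, a membrane-bound inhibitor of serine proteases of epithelia, had levels of 9.63, 9.54 and 9.43 on the BMP4 arrays against 5.70, 5.95 and 5.55 on the untreated arrays, a log2 difference of 3.80 ± 0.11 (SE; adjusted p = 1.96e-08 in limma, n = 3 arrays a group), although its other probe gave 1.68. Habp2, a circulating serine protease that binds hyaluronan, was at 9.43, 9.53 and 9.41 after BMP4 and 5.94, 5.96 and 5.72 untreated (3.58 ± 0.09). Gch1, the first enzyme of tetrahydrobiopterin synthesis, was at 9.50, 9.08 and 8.83 after BMP4 and 5.64, 5.31 and 5.53 untreated, where 2 of 3 arrays detected it. The 2 groups were far apart for all 3 genes, by more than 3 on a log2 scale on which arrays of a group differed by less than 1. The surface mucin gene Muc13, the threonine dehydrogenase gene Tdh, the tyrosine kinase gene Tnk1 and the uroplakin gene Upk1b were not detected on any untreated array. They were higher after BMP4 by bounds of at least 6.18-fold for Muc13, 5.46-fold for Tdh, 7.45-fold for Tnk1 and 6.47-fold for Upk1b. Such a bound sets the BMP4 mean against the dimmest detected probe of each untreated array. The uncharacterized gene 4933402E13Rik was at least 24.9-fold higher.

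The largest falls included a chaperone, an envelope protein and a phosphatase. Calr3, a testis-expressed relative of the ER chaperone calreticulin, had levels of 5.54, 6.02 and 6.04 on the BMP4 arrays, of which 2 detected it, against 9.37, 9.40 and 9.43 on the untreated arrays. Lor, which encodes the cornified envelope protein loricrin, was at 6.58, 7.09 and 6.81 after BMP4 and 10.23, 10.45 and 10.29 untreated, a difference of -3.50 ± 0.13 (adjusted p = 5.61e-08 in limma). The phosphatase gene Ppm1h was at 7.75, 8.03 and 8.18 after BMP4 and 11.38, 11.21 and 11.44 untreated (-3.36 ± 0.12), although its other probe gave -1.01. For each of these genes every BMP4 array lay below every untreated array. Genes lost from detection included 2510009E07Rik, at least 9.94-fold lower, the secreted microseminoprotein gene Msmb (8.29-fold), the selenium-binding protein gene Selenbp1 (6.69-fold) and the RING finger gene Lonrf3 (5.16-fold), each a lower bound.

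**Figure D2:**
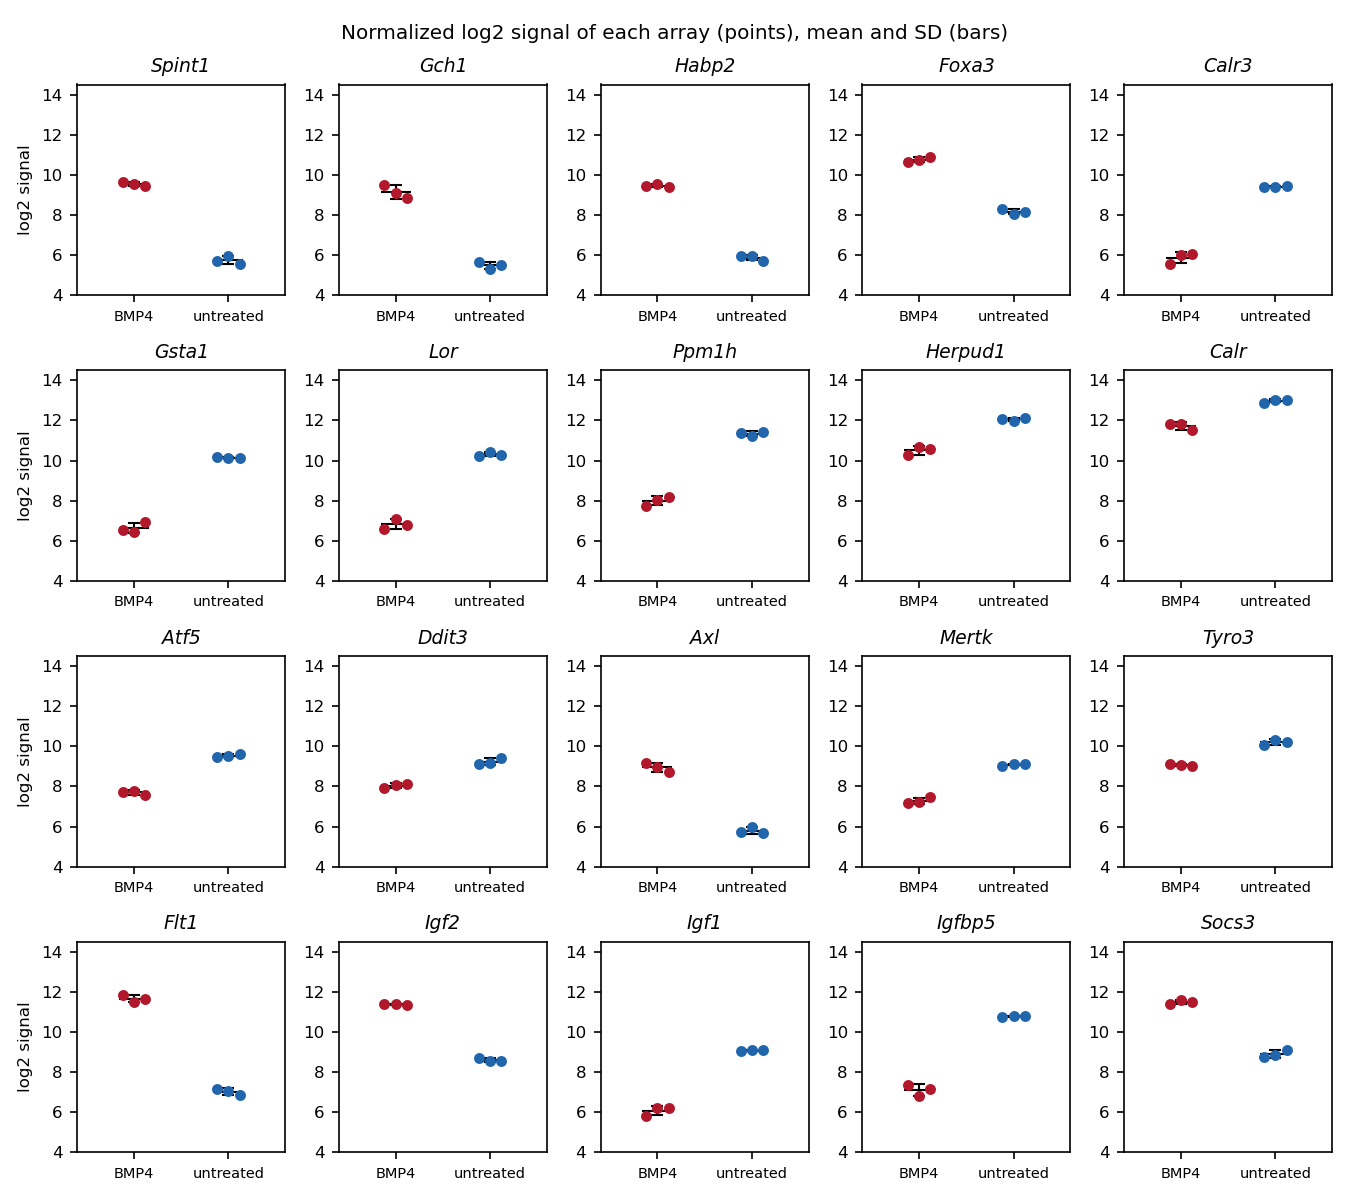
Log2 normalized signal of 20 genes on each of the 3 BMP4 arrays (left) and 3 untreated arrays (right), with the mean and SD as bars. In each of the 20 panels the arrays of the 2 groups do not overlap, with Spint1, Foxa3, Axl, Flt1, Igf2 and Socs3 higher after BMP4 and Calr3, Gsta1, Calr, Mertk, Igf1 and Igfbp5 lower.

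Chaperones of the endoplasmic reticulum (ER) and the unfolded protein response fell together. This response senses unfolded proteins in the ER and raises chaperones and degradation factors through the transcription factors XBP1, ATF6 and ATF4. Of 24 tested members, 21 (87.5%) were lower after BMP4, against 27.9% of all genes, none was higher and 3 (Ern1, Edem1 and Ppp1r15a) did not pass. The list's median log2 difference was -0.50, beside 0.02 over all genes, and 15 were lower with scale normalization. Herpud1, a membrane factor of ER-associated degradation, had levels of 10.25, 10.67 and 10.58 on the BMP4 arrays against 12.08, 11.96 and 12.11 on the untreated arrays, a difference of -1.55 ± 0.12 (adjusted p = 4.49e-06 in limma). The calcium-binding chaperone calreticulin (Calr) was at 11.84, 11.82 and 11.51 after BMP4 and 12.89, 13.04 and 13.02 untreated (-1.26 ± 0.11). Both genes were lower on every BMP4 array than on any untreated array. The stress-induced transcription factor gene Ddit3 (CHOP) fell by 1.20 ± 0.11, and lower calls were also made for the disulfide isomerase genes Pdia5 (-1.12 ± 0.12) and Pdia6 (-0.95 ± 0.11) and the chaperone cofactor gene Sdf2l1 (-1.08 ± 0.10). The central chaperone of the ER, BiP (Hspa5), was lower by less, at 7.61, 7.56 and 7.76 after BMP4 and 8.29, 7.89 and 8.27 untreated (-0.51 ± 0.12, adjusted p = 0.00546), with arrays that did not overlap.

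Some promoters of this list hold the letters of the ER stress element, to which ATF6 and the factor NF-Y bind together. The letters searched were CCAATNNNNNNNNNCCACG, on both strands, in 300 bases from 250 before to 50 after each annotated gene start in the RefSeq annotation of GRCm38.p6; 6974 of the 10055 genes tested had such a sequence. They occur in 13 of the 8949 promoters of tested genes (0.145%) and in 0.119% of all RefSeq promoters. Of those 13 promoters 10 belong to genes that were lower after BMP4, 3 to genes that were not called (Alg12, Pan2 and Xlr3a) and none to a gene that was higher. Over all 8949 promoters, 2590 belong to lower genes and 2495 to higher ones. Outside the ER list, the lower genes with the letters are Acacb, Spats2l and Zfp57, beside the 3 not called. Of the 20 lower members of the ER list with a promoter, 7 hold the letters: Calr, Creld2, Dnajc3, Ero1b, Hspa5, Pdia6 and Syvn1. Herpud1, Ddit3, Sdf2l1 and Pdia5, named above for their falls, do not. The list holds known targets of this response, so such letters are part of why some members are on it. The 4 of them below show which bases lie in and around the element in genes that fell, with 20 bases each side, read 5′ to 3′ on the strand that holds the letters. The capitals mark the letters that the search required, which are therefore alike in all 4; the bases between them differ.
Hspa5, chr2:34772005-34772063, plus strand: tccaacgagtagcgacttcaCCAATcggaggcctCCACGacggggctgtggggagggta
Pdia6, chr12:17266471-17266529, plus strand: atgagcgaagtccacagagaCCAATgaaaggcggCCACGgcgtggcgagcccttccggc
Creld2, chr15:88819500-88819558, minus strand: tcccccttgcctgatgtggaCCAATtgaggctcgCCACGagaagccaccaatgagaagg
Syvn1, chr19:6046512-6046570, plus strand: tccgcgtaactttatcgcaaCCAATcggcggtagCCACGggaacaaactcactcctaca
Creld2, a disulfide isomerase of the ER, fell by 0.77 ± 0.09 and Syvn1, the ubiquitin ligase of ER-associated degradation, fell by 0.71 ± 0.10. The shorter NF-Y letters CCAAT, which the ER stress element contains, occur in 17 of the 22 promoters of called members (77.3%), against 38.6% of all tested promoters. A match describes the letters and is not a measured binding site, and the full element was searched only after the CCAAT share had been seen. The call of Ero1b was lost with scale normalization and without BMP4 replicate 1 or 2 or untreated replicate 1.

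The machinery that carries proteins from the ER to the Golgi leaned the same way, with a weaker count. Of 54 tested genes, 26 (48.1%) were lower and 1, the coat gene Sec23b (0.33 ± 0.11), was higher, a call lost without BMP4 replicate 1 or 2 or untreated replicate 1 or 3. The median was -0.23, but with scale normalization 7 were lower. The signal peptidase genes Sec11c and Spcs3 were at 8.07, 8.23 and 8.13 and at 9.56, 9.56 and 9.59 after BMP4, against 9.52, 9.19 and 9.29 and 10.43, 10.51 and 10.48 untreated, and Sec11c fell by 1.19 ± 0.10. The cargo receptor gene Tmed3 fell by 0.68 ± 0.08 and the translocon-associated gene Ssr4 fell by 0.57 ± 0.10.

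The amino acid response driven by the transcription factor ATF4, which raises amino acid transport and synthesis when amino acids are short or the ER is stressed, was lower as well. Of 28 tested targets and components, 19 (67.9%) were lower after BMP4, 1 was higher and 8 did not pass, with a median of -0.44; Ddit3 is counted here too. Nupr1, a small stress-induced chromatin protein, had levels of 6.25, 6.81 and 6.86 on the BMP4 arrays against 12.09, 12.11 and 12.30 on the untreated arrays, a difference of -5.53 ± 0.16 (adjusted p = 1.56e-08 in limma). No BMP4 array detected the branched-chain aminotransferase gene Bcat1, which was at 9.65, 9.73 and 9.70 on the untreated arrays and at least 17.1-fold lower, although its 3 probes ran from -5.05 to -0.98. These were the widest gaps between the groups in the list. The transcription factor gene Atf5 was at 7.73, 7.80 and 7.57 after BMP4 and 9.47, 9.50 and 9.62 untreated (-1.83 ± 0.09). Among amino acid transporters, Slc7a5 fell by 1.09 ± 0.09, and the glycine transporter gene Slc6a9 was at 5.50, 5.63 and 5.84 after BMP4, where 1 array detected it, and 6.72, 7.06 and 7.25 untreated. Atf4 itself fell by 0.47 ± 0.09 and the asparagine synthetase gene Asns fell by 0.33 ± 0.10. The member that was higher was Atf3, a stress-induced repressor, at 8.64, 8.54 and 8.74 after BMP4 and 7.48, 7.55 and 7.64 untreated (1.08 ± 0.09). The serine metabolism genes Phgdh (0.21 ± 0.08), Psat1 (0.07 ± 0.09) and Shmt2 (0.13 ± 0.09) did not pass.

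**Figure D3:**
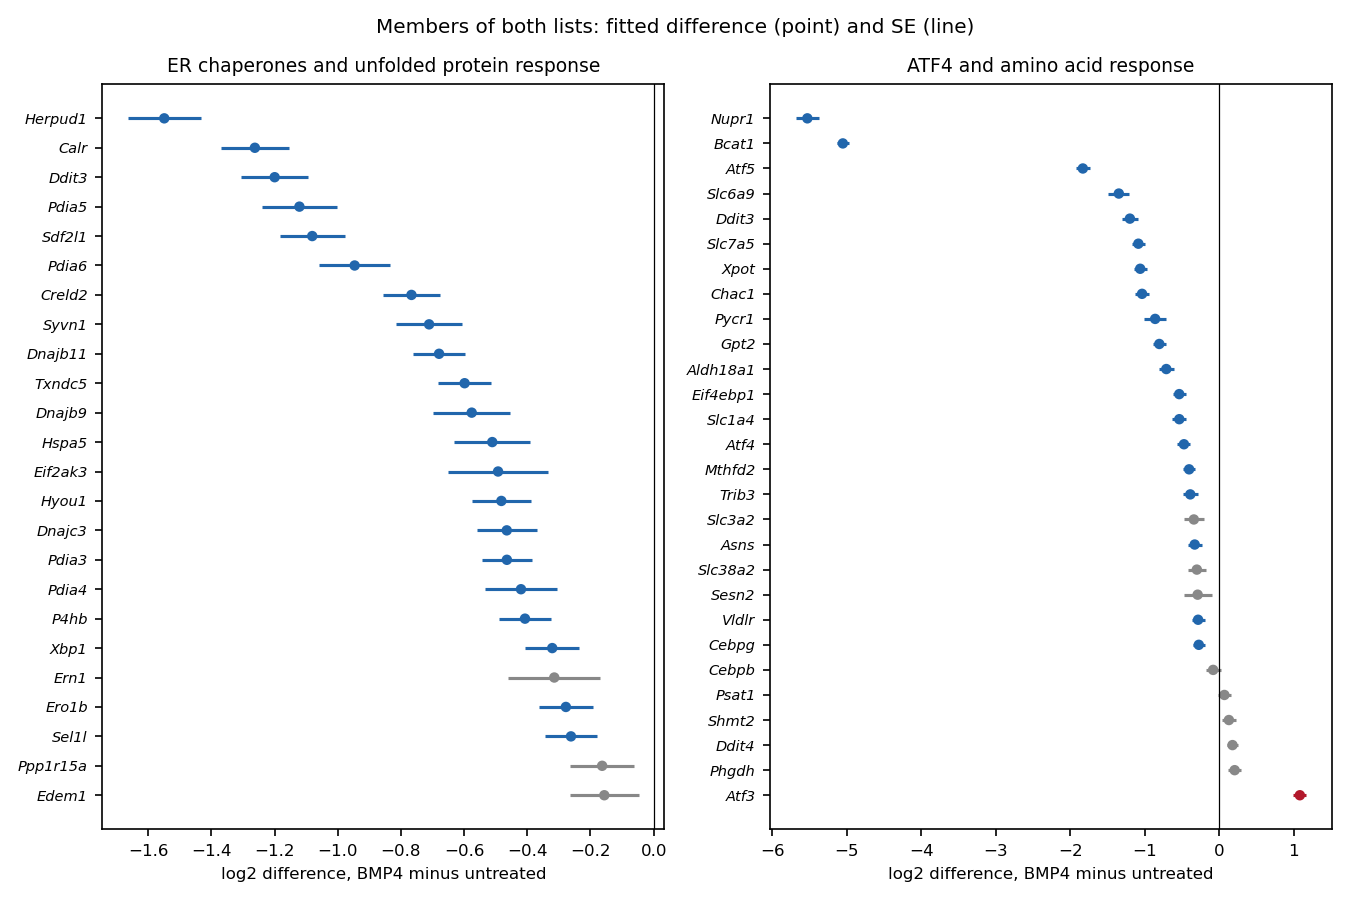
Fitted log2 difference, BMP4 minus untreated, of every tested member of the ER chaperone list (left, 24 genes) and the ATF4 list (right, 28 genes), with its SE as a line; blue is called lower, red called higher and grey not called. All 24 ER differences lie below 0, and 21 are called; in the ATF4 list 19 are called lower, led by Nupr1 and by Bcat1, which no BMP4 array detected, and Atf3 is called higher.

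The core letters of the amino acid response element, TGATGNAA, to which ATF4 binds with a C/EBP partner, were searched in the same promoters. They occur in 8 of the 23 promoters of called members (34.8%), against 2.08% of all tested promoters and 3.97% of all RefSeq promoters. By gene, 7 of the 17 lower members with a promoter sequence hold them (Asns, Chac1, Nupr1, Pycr1, Slc1a4, Trib3 and Vldlr), none of 8 members that did not pass, and also Atf3, which was higher. The list was drawn up from known ATF4 targets, so such letters are part of why some members are on it. The 4 stretches below set the genes that fell beside the one that rose, with 20 bases each side and the fixed letters in capitals.
Nupr1, chr7:126625553-126625600, plus strand: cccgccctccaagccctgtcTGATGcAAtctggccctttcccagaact
Chac1, chr2:119351029-119351076, minus strand: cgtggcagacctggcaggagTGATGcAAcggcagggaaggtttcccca
Asns, chr6:7693205-7693252, minus strand: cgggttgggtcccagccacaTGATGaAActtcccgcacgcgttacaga
Atf3, chr1:191183416-191183463, plus strand: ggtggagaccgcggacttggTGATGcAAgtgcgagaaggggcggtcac
Chac1, which degrades glutathione, fell by 1.04 ± 0.09. The calls of Asns and Vldlr were lost with scale normalization and without untreated replicate 1, and that of Vldlr without BMP4 replicate 1. Genes for aminoacyl tRNA synthetases, many of them known ATF4 targets, were mixed: of 18 tested, 6 (33.3%) were lower, led by Wars (-1.22 ± 0.10), and 3 (16.7%) higher, led by Qars (0.74 ± 0.08). In both lists Hspa5, Atf4, Phgdh, Psat1 and Shmt2, and every gene named for its letters other than Calr, Pdia6, Nupr1 and Atf3, were chosen after their values were seen.

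Other motifs were searched in the same promoters, and some of their shares differed between the classes of genes; none of these differences was tested. The GC-rich SMAD element GGCGCC occurs in 22.1% of promoters of genes that were higher, 20.7% of those lower, 22.5% of those not called and 21.9% of all tested, but in 13.7% of those of genes that gained detection. The KLF and SP box GGGCGG occurs in 46.0% of promoters of genes that gained detection, 57.7% of those that lost it and 65.3% of all tested, and the TATA box TATAAA in 12.9%, 9.96% and 6.75%. The FOX site TGTTTAC occurs in 5.61% of promoters of genes higher by at least 2-fold, 3.22% of those lower by as much and 2.44% of all tested, and the E-box CACGTG in 5.61%, 8.14% and 10.3%. Under 5 CpG were found in 7.13% of promoters of higher genes and 10.9% of lower ones, in 16.6% and 18.3% of those higher and lower by at least 2-fold, and in 6.0% of those not called. Promoters of genes that gained detection held a median of 9 CpG and those that lost it 17, against 21 over all tested genes.

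Genes of DNA repair were higher after BMP4. Of 47 tested, 29 (61.7%) were higher, against 28.1% of all genes, 3 (6.38%) lower and 15 not called, with a median of 0.34. Rad51c, a recombination factor, had levels of 8.63, 8.54 and 8.70 on the BMP4 arrays against 7.60, 7.63 and 7.44 on the untreated arrays (1.06 ± 0.09, adjusted p = 9.32e-06 in limma). Palb2, which bridges BRCA1 and BRCA2, was at 8.21, 7.80 and 8.29 after BMP4 and 7.38, 7.22 and 6.92 untreated. For both genes the BMP4 arrays lay above the untreated ones. Brca1 itself, detected on no untreated array, was at least 1.43-fold higher. The 3 members that were lower were Ercc4 and Ercc5, nucleases of nucleotide excision repair, and Fancl; Ercc4 fell by 0.44 ± 0.08, and the calls of Ercc5 and Fancl were lost with scale normalization and without BMP4 replicate 2, among others.

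Enzymes that make nucleotides were also called higher more often than lower: 15 (50%) of 30 were higher and 5 (16.7%) lower, with a median of 0.33. Thymidylate synthase (Tyms) was at 11.28, 11.25 and 11.33 after BMP4 and 10.35, 10.48 and 10.42 untreated (0.87 ± 0.08), and thymidylate kinase (Dtymk) at 11.39, 11.43 and 11.49 and 10.48, 10.60 and 10.62. The ribonucleotide reductase subunit gene Rrm2 rose by 0.71 ± 0.08, while Rrm2b, its p53-regulated relative, fell by 0.60 ± 0.09. The folate enzyme gene Mthfd1 was called lower at -0.85 ± 0.08, but its 2 probes gave -0.85 and 0.59, and their mean was not called. Among kinesins, the microtubule motors, 12 (57.1%) of 21 were higher, led by the mitotic motors Kif15 (1.07 ± 0.08) and Kif22 (1.02 ± 0.08). The 5 that were lower included the mitotic motor Kif23, whose 4 probes ran from -1.18 to 0.11, and Kif13a, a motor of vesicle transport, which no BMP4 array detected and which was at least 1.87-fold lower.

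Genes of Polycomb complexes and DNA methylation were more often higher than lower. Of 29 tested, 14 (48.3%) were higher and 6 (20.7%) lower. Pcgf5, a subunit of Polycomb repressive complex 1, was at 12.58, 12.66 and 12.55 after BMP4 and 10.93, 10.61 and 10.75 untreated (1.83 ± 0.10, adjusted p = 5.13e-07 in limma). The H3K27 methyltransferase gene Ezh2 was at 9.94, 9.89 and 9.82 after BMP4 and 8.98, 8.98 and 8.76 untreated, and the maintenance DNA methyltransferase gene Dnmt1 at 10.25, 10.04 and 10.16 and 9.28, 9.25 and 9.21. All BMP4 arrays lay above the untreated ones in these genes. Uhrf1, which recruits DNMT1 to new DNA, rose by 0.88 ± 0.10, and the H3K9 methyltransferase gene Suv39h1, counted in another list, rose by 1.28 ± 0.10. The de novo DNA methyltransferase gene Dnmt3b went the other way, at 9.29, 9.01 and 9.16 after BMP4 and 10.03, 9.88 and 9.98 untreated (-0.81 ± 0.09), as did the 5-methylcytosine oxidase gene Tet2 (-0.76 ± 0.16) and the lysine methyltransferase gene Setd7 (-2.07 ± 0.15). Suv39h1 and Setd7 belong to a list of 40 histone lysine methyltransferases and demethylases, of which 10 (25%) were higher and 9 (22.5%) lower.

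Large housekeeping complexes differed in how much they moved. Of 40 proteasome genes 21 (52.5%) were higher and none was lower, the rises being small, with Psma5 at 13.41, 13.40 and 13.42 after BMP4 and 12.85, 12.82 and 12.88 untreated (0.56 ± 0.07); without BMP4 replicate 2 or untreated replicate 3 there were 13. Of 78 cytosolic ribosomal protein genes 66 were not called (15.4% called, against 56%), and 12 were higher, or 7 without untreated replicate 2 or 3. Probes of ribosomal protein genes can also bind transcripts of near-identical pseudogenes, so single members are uncertain. Mitochondrial ribosomal proteins were higher in 27 (37.5%) of 72 and lower in 6 (8.33%), and Mrps6 rose by 0.87 ± 0.08. Respiratory chain genes were rarely called: 12 (16.2%) of 74 were lower and 4 (5.41%) higher, and with scale normalization the order turned, to 2 lower and 6 higher.

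**Figure D4:**
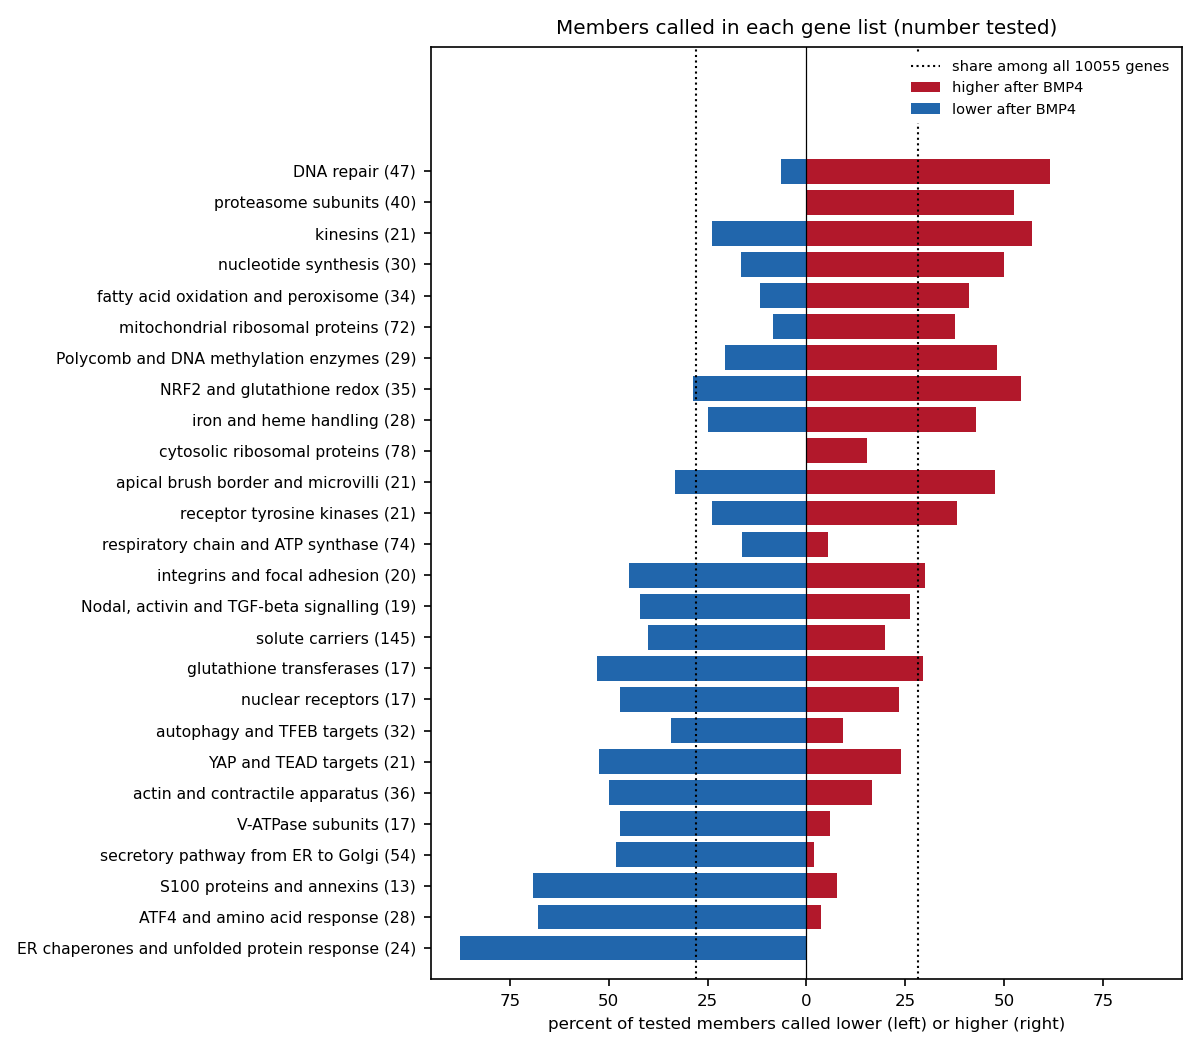
Percent of the tested members of 26 gene lists called lower (left) or higher (right) after BMP4, with the number tested in parentheses and the shares over all genes, 27.9% lower and 28.1% higher, as dotted lines. ER chaperones, the ATF4 list and S100 proteins and annexins reach furthest to the left, and DNA repair, kinesins and NRF2 genes furthest to the right.

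Receptors of 1 family moved in opposite directions. AXL, MERTK and TYRO3 are receptor tyrosine kinases that share the bridging ligand GAS6 and are known for the clearance of dying cells. Axl had levels of 9.17, 8.97 and 8.72 on the BMP4 arrays against 5.73, 5.97 and 5.67 on the untreated arrays (3.16 ± 0.13, adjusted p = 8.66e-08 in limma). Mertk was at 7.20, 7.22 and 7.47 after BMP4 and 9.04, 9.12 and 9.10 untreated (-1.79 ± 0.09), and Tyro3 at 9.12, 9.04 and 9.0 and 10.08, 10.33 and 10.22 (-1.16 ± 0.09). The BMP4 arrays thus lay wholly above the untreated ones for Axl and wholly below them for the other two. The angiopoietin receptor gene Tek was lower too, at 9.51, 9.48 and 9.61 after BMP4 and 10.92, 10.78 and 10.77 untreated, while the collagen receptor gene Ddr1 rose by 1.35 ± 0.10 and the ephrin receptor gene Epha1, detected on no untreated array, was at least 2.58-fold higher. Over the whole class 8 (38.1%) of 21 were higher and 5 (23.8%) lower, or 11 and 5 with scale normalization.

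Members of the insulin-like growth factor system also moved in opposite directions. Igf2, the fetal growth factor, was at 11.41, 11.39 and 11.35 after BMP4 and 8.72, 8.57 and 8.55 untreated (2.77 ± 0.08), whereas Igf1, which acts on the same receptor, was at 5.82, 6.23 and 6.22 after BMP4 and 9.06, 9.08 and 9.10 untreated (-2.99 ± 0.12, adjusted p = 6.62e-08 in limma). The binding protein gene Igfbp5 was at 7.36, 6.81 and 7.17 after BMP4 and 10.74, 10.81 and 10.79 untreated, and Pappa2, a protease that cleaves IGFBP5, was at 7.02, 7.30 and 6.97 and 8.63, 8.60 and 8.82. Igfbp5 and Pappa2 were thus both lower, without overlap. Igfbp2, detected on no untreated array, was at least 1.47-fold higher, and the RNA-binding protein gene Igf2bp3, which binds IGF2 mRNA, rose by 1.37 ± 0.12. In all, 4 (30.8%) of 13 members were higher and 4 (30.8%) lower, shares close to those of all genes.

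Ligands and receptors of the nodal, activin and TGF-beta branch, which signals through other SMADs than BMP4, were lower in 8 (42.1%) of 19 and higher in 5 (26.3%). The ligand gene Tgfb3 was at 5.77, 5.32 and 5.41 after BMP4, where 1 array detected it, and 7.62, 7.89 and 7.63 untreated, while Tgfb1 was at 6.92, 6.83 and 6.43 after BMP4 and 5.66, 5.71 and 5.46 untreated (1.12 ± 0.13). The co-receptor gene Tgfbr3 was at 9.68, 9.70 and 9.80 after BMP4 and 11.28, 11.11 and 11.21 untreated (-1.47 ± 0.08), and the type II receptor gene Tgfbr2 fell by 0.94 ± 0.11. The 2 ligand genes thus went apart, and both receptor genes were lower. Pcsk6, a convertase that activates nodal, was at 7.22, 7.21 and 6.90 after BMP4 and 5.33, 5.40 and 5.47 untreated, where 1 array detected it.

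Of the NOTCH pathway, which had no direction as a list (3 of 14 higher, 4 lower), the target genes Hey2 and Nrarp were lost from detection after BMP4, at least 4.33-fold and 1.32-fold lower. Hey2 was at 7.88, 7.48 and 7.77 on the untreated arrays. The receptor gene Notch3 rose by 0.81 ± 0.15 and the ligand gene Dll1 rose by 0.54 ± 0.08. Socs3, a feedback inhibitor of cytokine receptors, was at 11.40, 11.58 and 11.49 after BMP4 and 8.74, 8.86 and 9.11 untreated (2.59 ± 0.11, adjusted p = 1.08e-07 in limma). Of 24 complement and innate immunity genes 9 (37.5%) were higher and 8 (33.3%) lower. Among complement genes, the proteases Masp1 (at least 2.15-fold) and Cfi (at least 2.13-fold) were detected on no untreated array and were higher. The membrane complement inhibitor gene Cd59a (-2.11 ± 0.12) and clusterin (Clu, -1.47 ± 0.09) were lower. The guidance ligand gene Sema4a was at 8.69, 8.64 and 8.66 after BMP4 and 5.59, 5.92 and 5.64 untreated (2.95 ± 0.10). It was the 1 higher member of 9 tested semaphorins, plexins and neuropilins. Of these, 2 (22.2%) were lower and 6 were not called, and the lowest fitted difference was -3.96.

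Single genes tied to retinoic acid, a vitamin A product that patterns the embryo, came from the lists of oxidizing and reducing enzymes and of nuclear receptors, and the pathway was not counted as a list. Cyp26a1, which degrades retinoic acid, was at 8.37, 8.67 and 8.62 after BMP4 and 6.09, 5.79 and 5.82 untreated (2.65 ± 0.12, adjusted p = 1.34e-07 in limma). Aldh1a1, an enzyme that makes it, was at 6.25, 6.01 and 6.01 after BMP4 and 7.80, 7.91 and 7.80 untreated (-1.75 ± 0.09). The receptor gene Rarb was at 7.53, 7.64 and 7.47 on the untreated arrays and was lost from detection, at least 3.86-fold lower. Cyp26a1 was thus higher, and Aldh1a1 and Rarb lower, on every BMP4 array than on any untreated array. Whether retinoic acid signalling changed was not tested. Rara was higher by 0.49 ± 0.09, with 1 untreated array detecting it. The orphan nuclear receptor gene Nr2f1 was lost from detection and at least 4.53-fold lower. Another, Nr6a1, was at 9.85, 9.73 and 9.78 after BMP4 and 8.09, 8.09 and 8.08 untreated (1.70 ± 0.08). Nuclear receptors as a class were higher in 4 (23.5%) of 17 and lower in 8 (47.1%). The lower ones were 3 without untreated replicate 1 and 4 without untreated replicate 2 or 3. A gene found only on the 3 untreated arrays then drops below the detection filter. Lower calls over all genes also fell, from 2806 to 2288, 2207 and 2237 without untreated replicate 1, 2 and 3. How many nuclear receptors left the filter and how many only lost the call was not tested.

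Other transcription factor families also held members of both kinds. Foxa3, a pioneer factor of endoderm and liver, had levels of 10.64, 10.76 and 10.86 on the BMP4 arrays against 8.31, 8.04 and 8.14 on the untreated arrays (2.59 ± 0.10, adjusted p = 6.68e-08 in limma), while Foxc1, a regulator of mesoderm, was lost from detection and at least 2.39-fold lower. Of the SOX factors, 4 (57.1%) of 7 were lower, with Sox5 at 6.65, 6.55 and 6.65 after BMP4 and 8.50, 8.47 and 8.56 untreated, and 2 (28.6%) were higher. Of the KLF factors, 5 (55.6%) of 9 were lower and 1 (11.1%) higher, with the repressor gene Klf3 at 8.70, 8.82 and 8.92 after BMP4 and 10.23, 10.19 and 10.12 untreated (-1.37 ± 0.09).

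**Figure D5:**
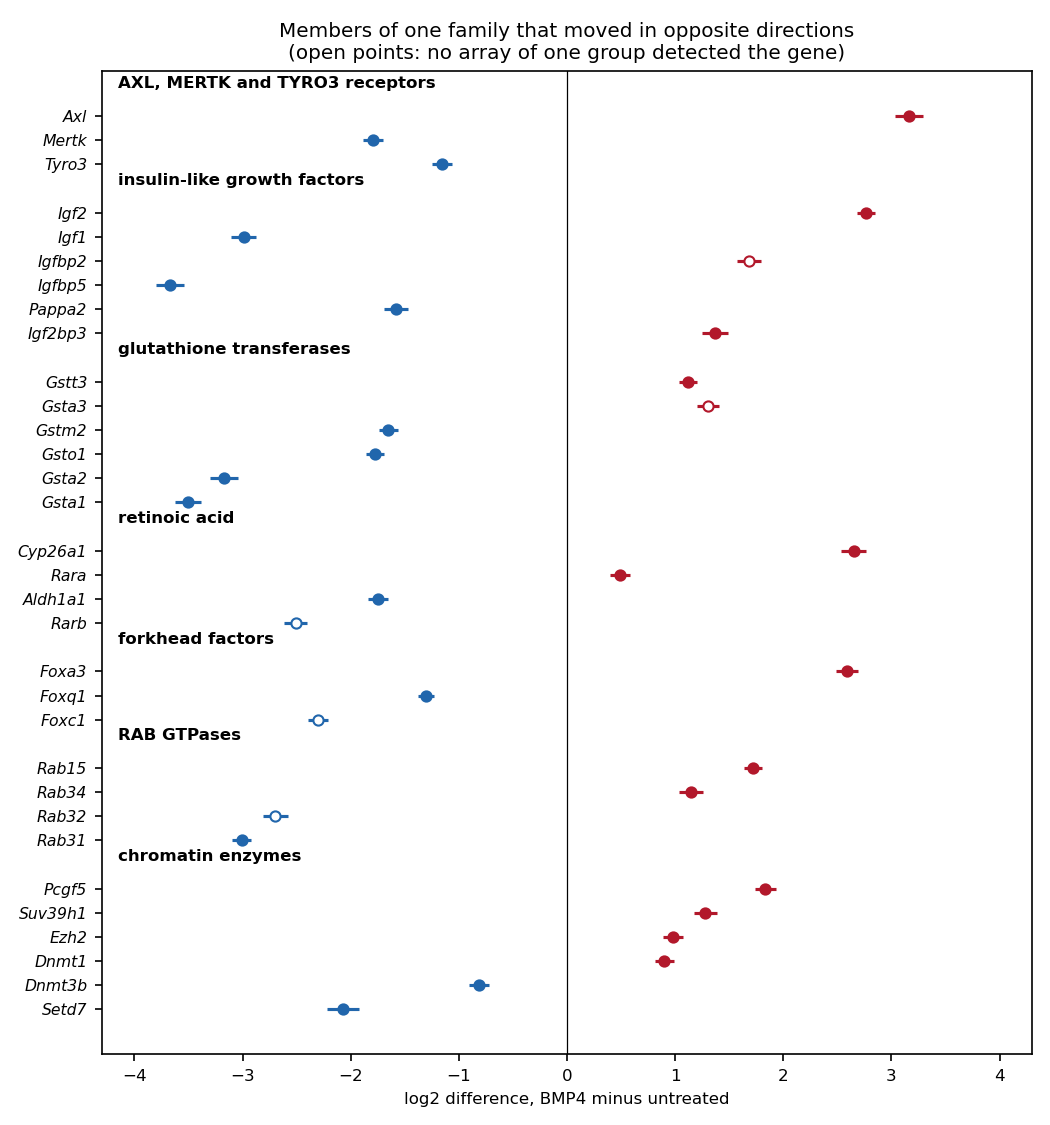
Fitted log2 difference, BMP4 minus untreated, with its SE as a line, for members of 7 families or pathways that moved in opposite directions; red is higher after BMP4 and blue lower, and open points mark genes that no array of 1 group detected, whose fitted difference is not a measured fold. Axl lies at 3.16 against -1.79 for Mertk, and Igf2 at 2.77 against -2.99 for Igf1.

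Transcripts of the apical surface were called in both directions. Of 21 genes in the brush border and microvillus list 10 (47.6%) were higher and 7 (33.3%) lower, or 7 and 7 without any 1 of the BMP4 arrays. The list also holds protease inhibitor genes, among them Spint1, its largest rise (3.80). Villin (Vil1), which bundles actin in microvilli, and the protease inhibitor gene Spint2 were detected on no untreated array, and rose at least 3.07-fold and 2.79-fold. The apical peptidase gene Dpp4 was at 10.68, 10.46 and 10.46 after BMP4 and 8.22, 8.50 and 8.33 untreated (2.18 ± 0.10), while Mme, which encodes another apical peptidase, neprilysin, was at 7.22, 7.18 and 7.21 and 9.39, 9.33 and 9.41 (-2.17 ± 0.08). The 2 peptidase genes thus moved apart. The actin nucleator gene Cobl was lost from detection, at least 4.76-fold lower, and moesin (Msn), which links actin to the membrane, fell by 1.16 ± 0.08. Polarity genes were higher in 9 (42.9%) of 21 and lower in 7 (33.3%), with the scaffold gene Patj at 8.08, 8.06 and 7.82 after BMP4 and 6.18, 6.20 and 6.06 untreated (1.84 ± 0.10) and Pard6g lower, at -1.09 ± 0.08.

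Membrane transporters were more often lower than higher. Of 145 solute carriers 58 (40%) were lower and 29 (20%) higher, against 27.9% and 28.1% of all genes. The zinc importer gene Slc39a4 was at 8.80, 9.05 and 8.69 after BMP4 and 5.62, 5.60 and 5.26 untreated, where 2 arrays detected it, although its other probe gave 1.24. The cystine transporter gene Slc7a9 and the orphan carrier gene Slc23a3 were detected on no untreated array, and rose at least 3.46-fold and 2.71-fold. The iodide transporter gene Slc5a5 was at 6.44, 6.50 and 6.20 after BMP4 and 8.33, 8.38 and 8.36 untreated (-1.98 ± 0.10), and the magnesium transporter gene Slc41a2 was lost, at least 3.33-fold lower. Of 28 iron and heme genes 12 (42.9%) were higher and 7 (25%) lower. The heme exporter gene Flvcr1 was at 10.24, 9.97 and 10.15 after BMP4 and 8.89, 8.93 and 8.92 untreated (1.21 ± 0.09), the iron exporter gene Slc40a1 rose by 0.71 ± 0.14, and the importer gene Slc11a2 fell by 0.53 ± 0.08.

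Genes of the serpin family of protease inhibitors were lower in 5 (55.6%) of 9 and higher in 2 (22.2%), the largest fitted rise being 5.03. Serpine2, which inhibits thrombin and plasminogen activators, was at 6.69, 6.49 and 6.88 after BMP4 and 9.77, 9.82 and 9.85 untreated (-3.13 ± 0.11, adjusted p = 3.56e-08 in limma), and the complement C1 inhibitor gene Serping1 fell by 1.12 ± 0.14. Serpinf2, the plasmin inhibitor antiplasmin, was instead detected on no untreated array and at least 2.87-fold higher. Tetraspanins, which organize membrane domains, were lower in 4 (40%) of 10 and higher in 1 (10%). Tspan8 was at 9.23, 9.28 and 9.83 after BMP4 and 11.58, 11.29 and 11.56 untreated, without overlap, and Tspan7 was lost from detection, at least 3.01-fold lower.

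Genes of the contractile cytoskeleton and of adhesion were more often lower than higher. In the actin list 18 (50%) of 36 were lower and 6 (16.7%) higher, or 12 and 6 with scale normalization. Caldesmon (Cald1), which regulates actomyosin, was at 5.60, 5.84 and 5.88 after BMP4 and 6.96, 7.02 and 7.19 untreated (-1.28 ± 0.10), and filamin C (Flnc) was lost from detection, at least 2.10-fold lower. The cytoskeletal myosin gene Myh10 was higher, at 8.89, 8.19 and 8.41 after BMP4 and 7.48, 7.79 and 7.45 untreated. In the list for the mechanosensitive factors YAP and TEAD, 11 (52.4%) of 21 genes were lower and 5 (23.8%) higher. The RhoGAP gene Dlc1 fell by 1.46 ± 0.09 and the angiomotin gene Amotl2 fell by 1.13 ± 0.11. Gadd45a, a stress gene, rose by 1.76 ± 0.08, and the largest rise in the list was 3.16. The activity of these factors was not tested.

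Integrins, the receptors for matrix, moved both ways. Itgb6, a subunit of the epithelial integrin that activates latent TGF-beta, was at 8.11, 8.24 and 7.87 after BMP4 and 6.36, 6.26 and 6.22 untreated (1.79 ± 0.11, adjusted p = 9.98e-07 in limma). Itgb5, a vitronectin receptor subunit, was at 9.56, 9.44 and 9.60 after BMP4 and 10.94, 11.08 and 10.94 untreated (-1.45 ± 0.09), and the laminin receptor subunit genes Itga6 (-1.12 ± 0.14) and Itga3 (-1.11 ± 0.09) were lower. The fibronectin receptor subunit gene Itga5 rose by 0.93 ± 0.13. The arrays of the 2 groups did not overlap for any of these 5 genes. The list held 6 (30%) higher and 9 (45%) lower of 20.

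Calcium-binding annexins and S100 proteins were lower in 9 (69.2%) of 13, and 1, Anxa13 (0.64 ± 0.08), which is known from intestinal epithelium, was higher. Annexin A5 (Anxa5), which binds phosphatidylserine, was at 11.27, 11.41 and 11.43 after BMP4 and 12.42, 12.51 and 12.44 untreated (-1.09 ± 0.08, adjusted p = 5.23e-06 in limma), and Anxa8 was lost from detection, at least 3.72-fold lower. Of 39 RAB GTPases, which direct vesicle traffic, 10 (25.6%) were higher and 15 (38.5%) lower, the lower ones being 10 with scale normalization and 9 without untreated replicate 1 or 2. Rab31, which acts in traffic from the Golgi to endosomes, was at 8.23, 8.42 and 8.37 after BMP4 and 11.28, 11.32 and 11.44 untreated (-3.01 ± 0.09), and Rab15, a GTPase of recycling endosomes, at 11.78, 11.80 and 11.92 and 10.07, 10.16 and 10.11 (1.72 ± 0.08). Rab32, of lysosome-related organelles, was lost from detection, at least 3.84-fold lower.

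Acidification and autophagy genes were called in 52.9% and 43.8% of their tested members, against 56% of all genes. Of 17 subunits and accessory proteins of the proton pump of lysosomes 8 (47.1%) were lower and 1, Atp6v0a1, was higher (0.30 ± 0.10). Without untreated replicate 1, 5 were lower, and the call of Atp6v0a1 was lost without that array, untreated replicate 3 or BMP4 replicate 1 or 2. Atp6v0b was at 10.03, 10.42 and 10.43 after BMP4 and 11.07, 10.98 and 11.12 untreated (-0.76 ± 0.12). Of 32 autophagy genes 11 (34.4%) were lower and 3 (9.38%) higher, or 9 and 3 with scale normalization. Folliculin (Flcn), a regulator of lysosomal signalling, was at 10.48, 10.60 and 10.50 after BMP4 and 11.54, 11.59 and 11.62 untreated (-1.06 ± 0.08), and Gabarapl1, which coats autophagosomes, fell by 0.98 ± 0.10.

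Enzymes of detoxification were called in both directions. Of 17 glutathione transferases, which attach glutathione to reactive compounds, 9 (52.9%) were lower and 5 (29.4%) higher, or 3 higher among genes detected on all 6 arrays and without BMP4 replicate 1 or 2. Gsta1 was at 6.56, 6.43 and 6.92 after BMP4 and 10.17, 10.12 and 10.12 untreated (-3.50 ± 0.12, adjusted p = 4.05e-08 in limma), and Gsta2 at 6.07, 6.21 and 6.53 and 9.58, 9.44 and 9.30; the transcripts of the pair are nearly identical, so their probes may share signal. Gsto1 was at 10.64, 10.52 and 10.60 after BMP4 and 12.34, 12.47 and 12.28 untreated, and Gstm2 (-1.65 ± 0.09) and Gstk1 (-1.69 ± 0.11) were lower. The theta class gene Gstt3 was higher, at 8.08, 8.24 and 8.17 after BMP4 and 7.11, 7.02 and 7.0 untreated (1.12 ± 0.08), and Gsta3, detected on no untreated array, was at least 1.72-fold higher. The wider list of NRF2 targets and glutathione metabolism was higher in 19 (54.3%) of 35 and lower in 10 (28.6%). It shares some of these transferases but not Gsta1 or Gsta2, its lowest difference being -1.78. Cytochromes P450, aldo-keto reductases and aldehyde dehydrogenases were higher in 9 (40.9%) of 22 and lower in 9 (40.9%). G6pdx, the first enzyme of the pentose phosphate pathway and a source of NADPH, was at 9.46, 9.47 and 9.26 after BMP4 and 8.0, 7.86 and 7.91 untreated (1.47 ± 0.09).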

How the data were processed

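Per the file headers, the deposited scanner table came from BeadStudio 3.4.0 with no normalization, and it holds the mean bead signal of 45281 probes, an intensity. Beside it stands the detection value, a fraction deposited as 1 minus a detection p. A processed table with log2 values was also deposited, and the submitters' processing notes name lumi for it. How it was normalized is not given here and its probes could not be linked to genes, so it served only to count probes.

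The 3 BMP4 and 3 untreated arrays were processed without the sorted arrays in limma 3.58.1 (R 4.3.3): background correction from the detection p (nec) with an offset of 16, then quantile normalization and log2. A probe was kept when 3 or more of the 6 arrays had its detection p below 0.01; 14651 were, and the brightest stood for its gene, which gave 10055 genes, 8577 with a current symbol. Of 3280 genes with more than 1 kept probe, 47 had probes called in both directions. Groups were compared by lmFit and eBayes (4 residual and 5.22 prior degrees of freedom, median residual SD 0.12), two-sided, with Benjamini-Hochberg adjustment over all genes and a threshold of 0.05. Differences are log2, BMP4 minus untreated, ± SE. No array was identical to another. For a gene that a group detected on none of its arrays, a bound is printed in place of a fold: that group's values were first raised to the normalized value of the array's dimmest detected probe. The fit was tested on simulated data.

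Genes are named by a rule: the 20 largest rises and falls, up to 6 called members of each list with up to 3 of the other direction and 3 not called, the 10 largest bounds each way, and a preset few; some genes that the rule takes are not reported here. The members, lists and rule were chosen with earlier results of these data known. Same-numbered arrays of the groups did not deviate together (r -0.05, -0.04 and -0.03), so numbers were not used as pairs. The alternatives changed the background correction (none, or an offset of 50), the normalization (scale), the arrays fitted (all 12, or each left out in turn), the filter (none, or all 6 arrays), the probe rule (mean), the model (array weights, replicate block), the threshold (0.01) and the values (processed table). Promoter sequences are RefSeq's for GRCm38.p6; probe positions are not given.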

Additional observations from a re-analysis of the deposited data

How the results depend on the processing

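The count of 5630 genes called stayed within 1.5 times under every alternative counted in genes, from 4209 at an adjusted p under 0.01 to 6244 with all 12 arrays, of which 5537 were called the same way in both fits. It was 5021 with scale normalization, where 54.6% of the calls were higher, against 50.2%. Scale normalization moved the median of all genes by 0.04. With a replicate block 5388 genes were called; the arrays share only a number, and the pairing was not used. Leaving out 1 array at a time gave 4642 to 5262 genes called, 2385 to 2520 higher, 2207 to 2743 lower and 904 to 974 changed at least 2-fold; a gene detected on only 3 arrays drops out when 1 of those is left out. The count of at least 2-fold changes, 1074, was 641 with no background correction, 688 among genes detected on all 6 arrays and 501 probes in the authors' processed table, where 4265 probes were higher. No background correction leaves the background in both groups, which shrinks log2 differences, and the stricter filter removes genes detected in 1 group; the cause in the processed table was not tested. Of 191 genes named, 181 were called, none changed direction among the 15 alternatives run on single genes, and 11 lost the call under at least 1; each fit without an array held 173 of them, and 144 were detected on all 6 arrays. Of 120 list counts, 51 moved by over 1.5 times under an alternative other than leaving out an array. Signal near background limits genes detected in 1 group to bounds.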

Other observations

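Lipid genes outside the sterol pathway were called in 52.9% of a fatty acid list and 73.2% of a membrane lipid list, against 56% of all genes (28.1% higher, 27.9% lower). Of 34 tested genes of fatty acid oxidation and the peroxisome, 14 (41.2%) were higher after BMP4 and 4 (11.8%) lower. Echs1, which hydrates enoyl-CoA in mitochondrial oxidation, was at 10.80, 10.90 and 10.87 on the BMP4 arrays against 9.81, 9.82 and 9.88 on the untreated arrays (1.02 ± 0.08, adjusted p = 5.10e-06 in limma), and the carnitine transferase gene Cpt2 rose by 0.59 ± 0.08. Of 41 enzymes of sphingolipids and phospholipids 18 (43.9%) were lower and 12 (29.3%) higher, or 7 higher without BMP4 replicate 3. Ceramidases, which release sphingosine from ceramide, went apart: Acer2, of the Golgi, was at 8.38, 8.14 and 8.06 after BMP4 and 5.88, 6.02 and 5.87 untreated (2.27 ± 0.10), whereas the lysosomal enzyme gene Asah1 was at 13.04, 12.98 and 13.11 and 14.05, 14.06 and 14.03 (-1.0 ± 0.08) and the neutral enzyme gene Asah2 fell by 1.16 ± 0.09. Me2, the mitochondrial malic enzyme gene, was at 10.17, 10.14 and 10.17 after BMP4 and 8.77, 8.90 and 8.78 untreated (1.35 ± 0.08), in a list of 28 pyruvate and TCA cycle genes of which 5 (17.9%) were higher and 6 (21.4%) lower, or 4 and 3 with scale normalization.

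Several gene families held members called in each direction. Keratins were higher in 4 (57.1%) of 7 and lower in 2 (28.6%): Krt18, of simple epithelia, was at 12.33, 12.31 and 12.11 after BMP4 and 11.22, 11.31 and 11.23 untreated, and Krt23 at 9.37, 9.98 and 10.10 and 11.66, 11.69 and 11.85 (-1.92 ± 0.17). Galectins, which bind galactosides, were higher in 3 (42.9%) of 7, with Lgals3 at 8.0, 7.59 and 7.67 after BMP4 and 6.71, 6.45 and 6.32 untreated, and lower in 3 (42.9%). Of 13 dual specificity phosphatases, which switch off MAP kinases, 7 (53.8%) were lower and 3 (23.1%) higher: Dusp16 rose by 1.0 ± 0.10 and Dusp1 rose by 0.93 ± 0.14, and Dusp3 fell by 1.19 ± 0.11, although its 4 probes ran from -1.19 to -0.10. Among 164 zinc finger proteins 47 (28.7%) were lower and 32 (19.5%) higher, against 27.9% and 28.1% of all genes, and the higher count was 19 with no detection filter, 21 without BMP4 replicate 3 and 20 without untreated replicate 2. The orphan receptor gene Gpr137b, of lysosomes, was at 8.53, 9.09 and 9.38 after BMP4 and 10.99, 10.90 and 10.94 untreated (-1.94 ± 0.18).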
